A study of Mus musculus with 2 samples.

Results

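Seed-shifted 5′ variants of miRNAs were described in J1 mESCs. They are tags, that is, distinct sequenced small RNAs, whose first base lay 1 to 3 bases before or after the first base of the most frequent tag of the same arm of a miRNA hairpin. The members were chosen on the read counts of both libraries together. A tag had to match a GENCODE M21 hairpin perfectly over its whole length, and its arm had to hold at least 1000 reads. By this rule 1641 of the 1695245 distinct tags of the series were members, 1356 of them seen in the DMSO library and 1304 in the PD library. They belonged to 226 arms of the 1287 arms with any read. Because copies of a hairpin share their tags, these 226 arms had only 174 different most frequent tags, called main tags below, and values per main tag count such copies once.

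J1 mESCs are an established embryonic stem cell line of the mouse, grown here without feeders on gelatin in serum replacement medium with LIF (1000 U/mL), a cytokine that keeps them undifferentiated. They received either PD (PD0325901, an inhibitor of MEK) at 1 μM or the solvent DMSO for 24 h. LIF was present in both groups. For each treatment 1 small RNA library was analysed, made from RNA pooled over 3 experiments, so the libraries can be compared with each other but the effect of PD cannot be tested.

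Sequencing depth was 18870345 clean reads for DMSO and 20944808 for PD, and 11.56% and 10.08% of them matched a miRNA hairpin perfectly. At these depths 3 reads equal 0.159 and 0.143 RPM, the reads of a tag scaled to the clean reads of its library. Intervals given below are 95% intervals that cover counting error only, since reads copied by PCR without molecular identifiers are not independent molecules. The miR-290 to miR-295 cluster, which is characteristic of mouse embryonic stem cells, was among the most abundant, with 207146 and 189875 reads of miR-290a-5p alone.

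A miRNA is cut out of its hairpin in 2 steps. Drosha cuts the primary transcript and so sets the 5′ end of the miRNA on the 5p arm, while Dicer cuts near the loop and sets the 5′ end of the miRNA on the 3p arm. Argonaute then uses the seed, bases 2 to 8 counted from the 5′ end, to pair with messenger RNAs. A tag that starts even 1 base away therefore offers another seed, while a change at the 3′ end leaves the seed as it is.

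The sequences below are the tags on which the comparisons turn, each as the most frequent deposited tag at its start, 5′ to 3′, with the seed in capitals. The first set shows the 3 arms with the most shifted reads beside miR-291a-3p, because these arms hold most of the shifted reads and the last 3 share letters around the seed.
miR-140-3p, main start: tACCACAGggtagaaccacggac
miR-140-3p, 1 base later: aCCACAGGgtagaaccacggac
miR-295-3p, main start: aAGTGCTActacttttgagtct
miR-295-3p, 1 base earlier: aAAGTGCTactacttttgagtct
miR-292-3p, main start: aAGTGCCGccaggttttgagtgt
miR-292-3p, 1 base earlier: aAAGTGCCgccaggttttgagtgt
miR-291a-3p, main start: aAAGTGCTtccactttgtgtgc
The main tag of miR-140-3p lies at chr8:107551288-107551310 on the plus strand of GRCm38, in an exon of Wwp2. The main tags of miR-291a-3p (chr7:3218968-3218989), miR-292-3p (chr7:3219239-3219261) and miR-295-3p (chr7:3220816-3220837) lie on the plus strand of chromosome 7 within one cluster. In miR-295-3p the start 1 base earlier gives the seed that miR-291a-3p has at its main start.

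The second set holds arms with several starts, and the miR-101 pair, whose 2 hairpins on different chromosomes have the same seed at the main start and again the same seed 1 base later.
miR-485-3p, main start: aGTCATACacggctctcctctct
miR-485-3p, 1 base later: gTCATACAcggctctcctctct
miR-485-3p, 3 bases later: cATACACGgctctcctctcttc
miR-409-3p, main start: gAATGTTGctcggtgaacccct
miR-409-3p, 1 base earlier: cGAATGTTgctcggtgaa
miR-409-3p, 1 base later: aATGTTGCtcggtgaacccct
miR-101a-3p, main start: gTACAGTActgtgataactgaa
miR-101a-3p, 1 base later: tACAGTACtgtgataactgaa
miR-101b-3p, main start: gTACAGTActgtgatagct
miR-101b-3p, 1 base later: tACAGTACtgtgatagctgaag
The hairpin of miR-485 (chr12:109734902-109734974) overlaps an exon of the noncoding gene Mirg, and that of miR-409 (chr12:109743158-109743236) an intron of it, all on the plus strand. The hairpin of miR-101a (chr4:101346945-101347027, minus strand) overlaps an exon of E130102H24Rik, and that of miR-101b (chr19:29135279-29135375, plus strand) an intron of Rcl1.

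The third set shows 3 arms whose shifted share differed between the libraries, in miR-345-3p and miR-341-3p less so under settings given below.
miR-345-3p, main start: cCCTGAACtaggggtctggag
miR-345-3p, 1 base later: cCTGAACTaggggtctggaga
miR-124a-3p, main start: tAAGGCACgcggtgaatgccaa
miR-124a-3p, 1 base earlier: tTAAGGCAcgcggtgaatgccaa
miR-341-3p, main start: tCGGTCGAtcggtcggtcggt
miR-341-3p, 1 base earlier: gTCGGTCGatcggtcggtcggt
miR-341-3p, 3 bases later: gTCGATCGgtcggtcggtcagt
The main tag of miR-345-3p lies at chr12:108837026-108837046 on the plus strand, in an exon of Slc25a47. The tag of miR-124a-3p is shared by 3 hairpins, 1 of them at chr14:64590657-64590741 on the plus strand in an exon of Mir124a-1hg. The hairpin of miR-341 (chr12:109611500-109611595) lies on the plus strand in an intron of the noncoding gene Rian, and its tags repeat the letters TCGG.

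Shifted starts took a small share of the reads in most arms and a large share in a few. Over all 226 arms, 6.84% of the reads (6.81 to 6.87) were shifted in the DMSO library and 7.21% (7.18 to 7.25) in the PD library. Counted once per main tag, the shares were 7.66% and 8.14%. The typical arm was far lower, with a median share per main tag of 1.40% in the DMSO library and 1.30% in the PD library, and 79 and 81 of the 174 main tags had a share under 1%. A single arm, miR-140-3p, gave 38.6% of all shifted reads, and the 5 largest gave 69.3%. Without miR-140-3p the shares per main tag were 5.27% and 5.23%, so the order of the libraries turned. In miR-140-3p itself, described below, the share was lower in the PD library too, while the arm had more reads there.

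Of the shifted reads, 99.9% came from tags of 1 arm only, where identical copies of a hairpin count as 1. No shifted tag began at the main start of another arm. In all, 25 shifted tags, with 1.78% of the shifted reads, also matched another RNA of the classes searched. Among them were those of miR-1839-5p and miR-3473b-3p, described below. The classes were ribosomal RNA, mitochondrial ribosomal and transfer RNA, small nucleolar, small Cajal body and small nuclear RNA, ribozymes and misc_RNA. Messenger RNAs and long noncoding RNAs, such as those whose exons hold a hairpin, were not searched.

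Most shifted reads began 1 base from the main start. The start 1 base later held 4.59% of the reads in the DMSO library and 4.85% in the PD library, and the start 1 base earlier held 1.76% and 1.90%. Starts 2 or 3 bases away each held at most 0.311%. The excess of later over earlier starts came largely from miR-140-3p. Counted once per main tag and without it, later starts held 2.68% and 2.43% and earlier starts 2.10% and 2.33%.

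The 3p arms, whose 5′ ends are made by Dicer, had higher shifted shares than the 5p arms. Counted once per main tag, the median share of the 87 3p arms was 2.82% in the DMSO library and 2.55% in the PD library, against 0.826% and 0.910% in the 87 5p arms. The quartiles were wide, from 0.604% to 12.2% for 3p arms and from 0.295% to 3.43% for 5p arms in the DMSO library, so the 2 kinds of arm overlapped broadly. Over all reads of the arms, with each copy of a hairpin counted, 10.7% and 11.8% were shifted on 3p arms and 2.28% and 2.16% on 5p arms. Of the 146588 and 151695 shifted reads on 3p arms, 59057 and 69880 came from miR-140-3p alone. With a minimum of 10000 reads per arm the medians over all arms were 1.39% and 1.84% on 3p arms and 0.630% and 0.910% on 5p arms. Arms are not replicates, and no test was made of this difference.

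In 44 arms, or 32 main tags, at least 10% of the reads were shifted in both libraries, and 22 of these main tags were from 3p arms and 10 from 5p arms. The most frequent shift was 1 base earlier in 14 of them, 1 base later in 14 and farther away in 4. Of 27 hairpins with at least 1000 reads on each arm, 8 had such a share on the 3p arm only, 3 on the 5p arm only and 1 on both. The exception was miR-183, a sensory organ miRNA, with 25.8% and 25.6% on the 5p arm and 15.9% and 16.3% on the 3p arm in the DMSO and PD libraries. The imprinted miRNA cluster on chromosome 12 (chr12:109585789-109743496) gave 7 of its 30 main tags to this group, and the rest of the genome 25 of 144.

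The arm with the most shifted reads was miR-140-3p, a miRNA known for its role in cartilage. It had 144037 reads in the DMSO library and 180700 in the PD library, of which 41.0% (40.8 to 41.3) and 38.7% (38.5 to 38.9) were shifted. Nearly all of these, 57787 and 68393 reads, began 1 base after the main start. In RPM the shifted reads stood at 3130 and 3336, which is 1.07-fold, and the reads at the main start changed 1.18-fold. Both forms were thus abundant in both libraries, and the share was lower in the PD library by only a small amount, -2.33 percentage points (-2.67 to -1.99).

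In miR-295-3p the shifted share was 39.1% (38.6 to 39.6) in the DMSO library and 43.3% (42.9 to 43.8) in the PD library, and the difference of 4.25 percentage points had an interval of 3.59 to 4.91. The start 1 base earlier held 16347 and 18816 reads. Shifted reads stood at 874 and 905 RPM, while reads at the main start changed 0.869-fold. The RefSeq entry for miR-295-3p begins at this earlier start, so the shifted form is the annotated one and the most frequent tag is the variant.

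The arm of miR-292-3p was split almost evenly, with 50.6% (50.0 to 51.2) and 49.8% (49.2 to 50.4) of its 25654 and 27780 reads shifted. The start 1 base earlier held 12935 and 13795 reads. Which of its 2 starts is the main one depends on how it is chosen, because the most frequent single tag lay at the later start while the earlier one had more reads over all tag lengths. This was the only one of the 174 main tags where the 2 ways of choosing differed.

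These earlier starts put the letters AAGTGC at bases 2 to 7, which are shared by miRNAs known to promote the cell cycle of embryonic stem cells. This set was looked at after its values were seen. Over all arms, 93118 reads in the DMSO library and 90762 in the PD library had these letters there within 3 bases of a main start. Shifted starts gave 29467 of these reads, or 31.6% (31.4 to 31.9), in the DMSO library and 32806, or 36.1% (35.8 to 36.5), in the PD library. Nearly all came from miR-295-3p and miR-292-3p. These shares depend on which start is called the main one, and the intervals do not cover that choice. The 12935 and 13795 reads of miR-292-3p lie at its start with more reads over all tag lengths. Those of miR-295-3p lie at its RefSeq start. For the 7 letters AAGTGCT at bases 2 to 8, the main seed of miR-294-3p and miR-291a-3p, shifted starts gave 20.9% (20.6 to 21.2) and 25.2% (24.9 to 25.5). The main start of miR-294-3p had 53958 and 48336 reads, while the earlier start of miR-295-3p had the 16347 and 18816 given above. Neither share differed 1.5-fold between the libraries.

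Across the 13 main tags of the miR-290 to miR-295 cluster the mean share of the 2 libraries ranged from 0.476% in miR-293-3p to 50.2% in miR-292-3p, with a median of 4.02% beside 1.36% over all 174 main tags. In miR-291b-5p, the third main tag of the cluster above 10%, the share was 26.0% and 22.1%. By contrast, the abundant miR-290a-5p had 2.10% and 2.01% and miR-294-3p 1.26% and 1.32%. Neighbours in 1 cluster therefore had shares that differed by far more than their counting intervals.

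The highest share was found in an arm of moderate abundance. In miR-485-3p, 51.7% (50.2 to 53.2) of 4401 reads were shifted in the DMSO library and 56.7% (55.1 to 58.4) of 3427 reads in the PD library. Most lay 1 base later, with 1530 and 1175 reads, or 3 bases later, with 633 and 644 reads, and the start between them held 110 and 123 reads. In miR-409-3p, with 50.0% of 3734 reads and 45.0% of 2601 reads, shifted starts lay on both sides of the main start, with 1345 and 788 reads 1 base earlier and 516 and 381 reads 1 base later. Tags of 18 nt were frequent at the earlier start, and with tags of at least 20 nt the shares were 41.5% and 41.4%.

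Among the other arms with a high share, the shares were alike in the libraries. They were 46.9% and 46.3% in miR-365-2-5p, and 48.0% and 43.4% in miR-330-3p, whose hairpin overlaps an exon of Eml2. The shares of miR-363-3p, a member of the miR-106a-363 cluster, were 43.0% and 40.6%. For miR-411-5p, of the chromosome 12 cluster, they were 38.1% and 39.8%, and for miR-322-3p they were 37.6% and 36.2%. The miR-199a-3p tag, which 3 hairpins share, had 33.2% and 32.8%. In all 6 the interval of the difference held 0, and miR-183-5p, given above, was the same in this respect. For miR-6236-5p, with 41.5% and 43.8% and starts from 3 bases earlier to 1 base later, the interval also held 0. Its main tag was only 19 nt long. The tags of this arm matched none of the other RNA classes searched, but the transcripts searched may not hold full ribosomal RNA. An origin from such RNA was not tested.

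The miR-101 pair differed from each other. In miR-101b-3p, 30.4% (30.0 to 30.8) and 35.2% (34.7 to 35.7) of 49244 and 33192 reads were shifted, a difference of 4.84 percentage points (4.19 to 5.50). In miR-101a-3p, 21.0% and 20.8% of 23494 and 23631 reads were, and the interval of the difference held 0. Of the reads of miR-101b-3p at its main start, 19952 in the DMSO library and 8019 in the PD library were a single tag of 19 nt. With tags of at least 20 nt the shares of miR-101b-3p were 35.9% and 38.9%. The seed of the start 1 base later, ACAGTAC, was the same in both.

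Another 4 arms were among the 10 with the most shifted reads, and their shares were close in the libraries. miR-433-3p had 22.1% and 21.4%, miR-320-3p, which is made without Drosha, had 10.2% and 9.87%, and miR-323-3p had 12.6% and 13.4%. In miR-323-3p the main tag was only 19 nt long, and with tags of at least 20 nt its shares were 28.6% and 23.9%. For miR-1839-5p, with 16.9% and 16.5%, all reads also matched a small Cajal body RNA annotated at the same place, so that tags of either RNA cannot be told apart.

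Most shifted shares differed little between the DMSO and PD libraries. Among the 113 main tags with at least 50 shifted reads, the median ratio of the PD share to the DMSO share was 0.979, with quartiles of 0.878 and 1.10. A share was called different at a ratio of 1.5 or more either way where the interval of the difference left out 0. By this rule 16 of 226 arms (7.08%) were higher in the PD library and 7 (3.10%) were lower. Of the 16, 11 were copies that share the miR-467a-5p tag, with 5 and 27 shifted reads in all, so that per main tag 6 were higher and 5 lower. Of the 32 main tags with at least 10% shifted reads in both libraries, 2 were called higher and 1 lower, beside 3.45% and 2.87% of all 174 main tags. In 26 of these 32 the shares lay within 5 percentage points of each other, and in 18 the interval of the difference held 0.

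Among the 32 main tags at high share, the widest difference in percentage points was that of miR-345-3p, which did not reach 1.5-fold. In it, 427 of 856 reads (49.9%, 46.5 to 53.2) were shifted in the DMSO library and 334 of 929 (36.0%, 32.9 to 39.1) in the PD library, a difference of -13.9 percentage points (-18.4 to -9.35). In the PD library reads at the main start were 1.25-fold and shifted reads 0.705-fold of those in the DMSO library, in RPM. The 2 forms differed in opposite directions here, and the RefSeq entry begins at the shifted start. The difference depended on the tags counted. When tags with up to 2 unmatched 3′ bases were also counted, the ratio of the PD share to the DMSO share was 0.89 in place of 0.721.

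In miR-124a-3p, a miRNA of the nervous system, the shifted share was 6.11% (5.46 to 6.82) in the DMSO library and 3.29% (2.95 to 3.66) in the PD library. The shifted reads themselves were level, at 15.6 and 15.5 RPM. The reads at the main start were 1.91-fold higher in RPM in the PD library. The lower share thus came with more reads at the main start and not with fewer shifted reads.

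The shifted share of miR-341-3p was 18.5% (17.4 to 19.7) of 4495 reads and 10.7% (9.99 to 11.5) of 6685 reads. The start 3 bases later held 579 and 475 reads and the start 1 base earlier 252 and 238. Starts more than 3 bases from the main start held 779 and 2245 reads of this arm. When only starts within 3 bases were counted, the shares were 22.4% and 16.1%, a ratio of 0.720 that was no longer called. When tags with up to 2 unmatched 3′ bases were also counted, they were 6.91% and 6.07%, a ratio of 0.879 that was not called either.

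The remaining shares called lower rested on few reads. In let-7f-5p the share was 0.102% and 0.0577%, from 53 and 34 shifted reads among 51718 and 58974. These are the values of the let-7f-1 hairpin. The let-7f-2 copy, with 52379 and 59879 reads, was not called. The other shares called lower, named after their values were seen, were miR-676-3p with 27 and 12 shifted reads and miR-16-5p with 24 and 14. For miR-16-5p, too, another hairpin copy was not called.

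The shares called higher with at least 50 shifted reads were led by miR-665-3p, of the chromosome 12 cluster, with 28 of 1331 reads (2.10%, 1.46 to 3.02) and 53 of 1229 reads (4.31%, 3.31 to 5.60). In miR-29a-3p the share was 1.49% (1.21 to 1.84) and 2.37% (1.98 to 2.83), from 86 and 119 shifted reads, most of them 1 base earlier. Both arms of miR-6240 were called. Its 3p arm had 43 and 34 shifted reads, or 3.30% and 6.55%, and its 5p arm 119 and 105, or 17.1% and 28.3%. In both arms the reads at the main start were lower in the PD library, at 0.343-fold and 0.415-fold in RPM. Nearly all reads of the 5p arm were shorter than 20 nt, shifted or not. Only 1 of its 696 reads in the DMSO library and 1 of its 371 in the PD library were longer, and neither was shifted. With tags of at least 20 nt the 3p arm had 4.97% and 7.12%, which was not called. As for miR-6236-5p, the tags of miR-6240 matched none of the other RNA classes searched, which may lack full ribosomal RNA. An origin from such RNA was not tested here either.

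The last of the 5, miR-3473b-3p, had 148 of 908 reads shifted (16.3%, 14.0 to 18.8) and 339 of 1151 (29.5%, 26.9 to 32.2). Of its reads, 98.2% also matched an annotated RNA of the class misc_RNA, and its most frequent tag was only 18 nt long. With tags of at least 20 nt, 72 of 91 reads and 129 of 197 reads were shifted, or 79.1% and 65.5%, so the difference had the opposite direction. The part of the other RNA in this result was not tested.

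Compared by RPM, 6 of the 146 arms with at least 50 shifted reads (4.11%) had shifted reads 1.5-fold or more higher in the PD library, and 18 (12.3%) had them lower. By all of their reads, 6.64% of the 226 arms were higher and 9.29% lower by the same fold. All of these percentages count each copy of a hairpin. The 146 arms had 113 main tags, and the miR-199a-3p tag counts 3 times among the 18. Most of the 15 arms behind the 6.64% were copies that share the miR-467a-5p or the miR-124a-3p tag. The split depended on the scaling, since RPM to all clean reads put the median main tag at -0.19 on the log2 scale in the PD library. With the TMM factors of edgeR, under which the median was -0.04, 8 were higher and 11 lower. The lower group held, named after their values were seen, miR-92-1-3p, with 19.02 and 8.40 RPM of shifted reads, and miR-409-3p, with 99.0 and 55.9 RPM. Their main-start reads were lower too, at 0.584-fold and 0.690-fold. The higher group held miR-365-2-5p, at 1.55-fold, whose main-start reads were 1.59-fold higher.

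Among the arms with at least 1000 reads, a shifted start seldom gave the main seed of another arm. At least 1% of the reads of an arm lay at 123 shifted starts on 93 main tags, and 6 of these starts had the main seed of another arm. Besides miR-295-3p, they were miR-292-3p, 1 base earlier, with the seed AAGTGCC of miR-467a-5p, and miR-106a-5p, 1 base later, with AAGTGCT and only 28 and 25 reads. In let-7c-5p the start 1 base later, with 1389 and 1237 reads, had the seed AGGTAGT of miR-196a-5p. In miR-690-3p the start 2 bases earlier, with 63 and 66 reads, had the seed TAAAGGC of miR-1981-5p. The 6th was miR-291a-3p, whose start 1 base earlier had 140 and 119 reads and the seed AAAGTGC of the miR-17 family. The 174 main tags had 138 different seeds, and the other shifted starts had seeds that no main tag had.

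The tags of this comparison are shown because the miR-290 to miR-295 cluster and the miR-17 family share letters around the seed.
miR-291a-3p, 1 base earlier: gAAAGTGCttccactttgtgt
miR-106a-5p, main start: cAAAGTGCtaacagtgcaggtag
miR-106a-5p, 1 base later: aAAGTGCTaacagtgcaggtag
let-7c-5p, main start: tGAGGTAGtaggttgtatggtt
let-7c-5p, 1 base later: gAGGTAGTaggttgtatggtt
The earlier start of miR-291a-3p and the main start of miR-106a-5p have the same seed, and so have the main start of miR-291a-3p and the later start of miR-106a-5p. The let-7c-5p tag is shared by 2 hairpins.

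The let-7 family, whose members restrain self-renewal, had mostly low shifted shares. Its 8 main tags had a median of 0.0883% beside 1.36% over all main tags, and the highest was let-7c-5p with 2.31% and 2.19%. All 8 were from 5p arms, whose medians per main tag were 0.826% in the DMSO library and 0.910% in the PD library. Not all were below these medians, since let-7d-5p had 1.435% and 1.101% and let-7g-5p 0.630% and 0.910%. In let-7b-5p 0 of 1711 and 0 of 1679 reads were shifted, which allows shares of up to 0.175% and 0.179%. The 5 main tags of the miR-106b-25 cluster had a median of 0.407%, the 6 of the miR-17-92 cluster 0.952% and the 7 of the miR-106a-363 cluster 1.75%. Within these clusters, miR-17-3p reached 9.75% and 11.1%. Of the hairpins known to be made without Drosha, miR-877-5p had 1.80% and 1.70%, beside miR-320-3p above. No arm of the miR-302 to miR-367 cluster had 1000 reads, and 9 had any.

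The first base of the 123 frequent shifted starts was compared with that of the main starts they were shifted from. G was first in 21.1% of the shifted starts and in 12.2% of their main starts, and A in 39.8% and 48.8%. The shares of T (20.3%) and C (18.7%) were the same in both. Over all 174 main tags, including those without a frequent shifted start, T was first in 39.1%. By reads the picture was another one, since A was first in 70.5% of the shifted reads and 49.9% of the main-start reads, T in 17.6% and 32.1%, C in 6.29% and 12.9%, and G in 5.64% and 5.10%. The reads are dominated by few arms, such as miR-140-3p, miR-295-3p and miR-292-3p, whose shifted tags begin with A. Argonaute is known to favour a first U, read here as T, or A.

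Shifted tags mostly kept the 3′ end of the main tag and not its length. In the 33 arms with at least 100 reads at the start 1 base earlier, a median of 63.8% of those reads ended where the main tag ended and 13.2% had its length. In the 49 arms with at least 100 reads at the start 1 base later, the medians were 52.9% and 10.2%. Of the reads at the main start of the same arms, 68.2% and 59.6% ended there. More reads kept the end than the length in 25 of the 33 arms and in 38 of the 49. The tags of miR-140-3p, miR-295-3p and miR-292-3p printed above show this, each pair ending at the same base. Not all printed pairs do. The pair of miR-345-3p has the same length and different ends, and that of miR-101b-3p shares neither.

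For 151 of the 174 main tags a mature miRNA was found in the RefSeq table, and 145 of them began at the same base. The 6 others were miR-295-3p, miR-101a-3p, miR-382-3p, miR-345-3p, miR-183-3p and miR-6240-5p, of which 5 were from 3p arms. In miR-101a-3p the annotated start held 21.0% and 20.7% of the reads, and in miR-183-3p 15.3% and 15.4%. In miR-382-3p it held 1 of 5996 reads and 0 of 3552, and in miR-6240-5p 0 in either library. Thus 5 of the 6 were seen also at their annotated start in at least 1 library, and in 4 of them as a frequent shifted start.

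The limit of 1000 reads decided which arms were described. Just above it were miR-350-3p with 1019 reads, miR-376b-3p with 1021 and miR-31-5p with 1024, with shifted shares of at most 0.765% in either library. Just below were miR-29c-3p with 992, miR-532-5p with 976 and miR-374b-5p with 966, with shares of at most 1.73%. For arms of this size a count of 0 in 1 library allows a share of up to 0.633%, as in miR-31-5p with 0 of 474 reads in the DMSO library.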

How the data were processed

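The authors sequenced small RNA of J1 mESCs treated with PD or DMSO, filtered the reads by quality, adapter and a length of at least 18 nt, and merged identical ones into tags. The deposited values are the raw count of reads of every tag, and the files hold no coordinates. The processing notes name the build mm9, and the aligner and its version are not given in the sources used here. The row that names no tag holds the total of the file and was left out, and 0 columns of other samples were found.

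From the deposited counts, Python 3.11.15 with numpy 2.4.6 was used to match tags to 1174 miRNA hairpins of GENCODE M21 (GRCm38), perfectly and over the whole tag. ViennaRNA 2.7.2 placed the loop and so separated 5p from 3p arms. A tag was counted for an arm where it overlapped the main tag by at least 16 nt or began within 3 bases of its start, and for each arm it matched. The share is the shifted reads over all reads of the arm. Shares have Wilson intervals and differences Newcombe intervals, both at 95%. With 1 library per treatment no test was run. TMM factors (edgeR 4.0.16) and size factors (DESeq2 1.42.0, R 4.3.3) served as other scalings. Mature starts were taken from RefSeq, GRCm38.p6, by position, and coordinates and overlaps with genes on the same strand from GENCODE M21.

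Named arms were the 15 with the highest mean share, the 10 with the most shifted reads, up to 5 called rises and 5 falls with at least 50 shifted reads, those with the seed of another arm, those around 1000 reads, those that begin elsewhere than RefSeq, and the extremes of fixed lists of miRNA clusters and families. The members, lists and rules were chosen with earlier results of these data known. The calculation was tested on simulated data. Alternatives were the tags, starts and lengths counted, the minimum of reads, the fold and the scaling, and, added after seeing the data, leaving out miR-140-3p.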

Additional observations from a re-analysis of the deposited data

How the results depend on the processing

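The 2 libraries have no replicates, so no value can be set against the spread between cultures, and depth limits mainly arms near 1000 reads. Over all arms the PD share was above the DMSO share in each of the settings given next, but without miR-140-3p, an alternative chosen after seeing the data, it was below it, at 4.713% against 4.779%. The 2 shares were 7.016% and 7.368% with tags that match 1 arm, 6.645% and 7.112% with tags of 20 nt or more, 7.903% and 8.19% from the RefSeq start, 7.392% and 7.875% with up to 2 unmatched 3′ bases, 7.011% and 7.376% with arms of 100 reads or more, and 7.661% and 8.138% with each main tag once. With arms of 10000 reads or more the DMSO share was 6.753%. With tags that match 1 arm, earlier starts by 1 base held 1.81% and 1.937% and later ones 4.713% and 4.955%. Later ones held 4.412% and 4.775% with tags of 20 nt or more. With arms of 10000 reads or more, the median share of 3p arms was 1.393% and 1.844% in place of 5.584% and 4.312%. The last 2 values count each copy of a hairpin, and per main tag they were 2.819% and 2.546%. With arms of 10000 reads or more, 10 arms in place of 44 had 10% or more shifted reads in both libraries, against 128 with arms of 100 reads or more.

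Counts of called arms depended on the settings. The RefSeq start could be used only for the 168 arms with a mature entry, in which the main start gave shares of 6.561% and 7.048% and called 4 arms higher and 4 lower. Arms with a higher share in the PD library numbered 16, but 3 from the RefSeq start, 4 with unmatched 3′ bases, 1 with 10000 reads or more, 6 with each main tag once and 5 with tags of at least 2 reads. Lower ones numbered 7, but 4 from the RefSeq start, 12 with 100 reads or more and 0 at 2-fold, where 12 were higher. Of the 16 higher arms, and of the 12 higher at 2-fold, most were copies that share the single miR-467a-5p tag. Arms with lower RPM of shifted reads numbered 18, but 9 when scaled to reads that match hairpins, 11 with TMM, 9 with the size factors of DESeq2, 44 without a minimum of shifted reads and 3 at 2-fold. Higher ones numbered 6, but 27 without a minimum, 3 with 200 shifted reads and 1 at 2-fold. Seeds of another arm numbered 6, but 3 where the other arm had 10000 reads or more.

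For miR-3473b-3p the ratio of the PD share to the DMSO share was 0.8276 with tags of 20 nt or more, in place of 1.807. The calls of miR-341-3p (starts within 3 bases, or unmatched 3′ bases), miR-3473b-3p (unmatched 3′ bases), miR-6240-3p (20 nt or more) and miR-6240-5p (RefSeq start) were lost, and miR-6240-5p had no shifted tag of 20 nt or more. The causes were not tested.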
